A study of Mus musculus with 8 samples.

Results

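The 45 genes described here encode proteins of the lysosome, the acidic compartment in which cells break down proteins, sugars and lipids. They were taken by symbol from the 32285 genes in the files, and all 45 were found. The list holds cathepsins and other peptidases, sugar and sulfate hydrolases, lipid-handling proteins, membrane proteins, the transcription factor Tfeb and the growth factor precursor Grn. Lysosomal enzymes are made in the endoplasmic reticulum, tagged with mannose 6-phosphate in the Golgi and carried to the lysosome, where low pH activates many of them. TFEB and its relatives MITF and TFE3 switch on many of these genes through a short promoter element built on an E-box. Microglia, the resident phagocytes of the brain, depend on lysosomes to digest what they engulf.

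Single-nucleus RNA was measured in punches of the left anterior hippocampus and caudate putamen of C57BL/6JN mice aged 3 or 21 months. Each of the 4 groups of region and age had 2 libraries, and each library mixed nuclei of 1 male and 1 female. No treatment or transgene is named. It is not stated in the labels if punches of both regions were taken from 1 set of mice. The p-values therefore measure the spread between libraries, each a pool. RNA of nuclei is mostly unspliced and newly made, so levels here are nuclear and not protein levels.

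The 8 libraries held 6.72e+07 to 2.35e+08 UMIs each. After filtering, 97915 nuclei remained, 6382 to 17034 per library, with a median of 6702 to 11266 UMIs (counted molecules) per nucleus. Clusters were named from marker genes, and 13 classes with at least 20 nuclei in each library of a region were analysed. Of these, 5 were found in both regions, so 9 of the 13 were analysed in each library. Microglia-like nuclei numbered 165 to 647 per library with 485217 to 1909686 summed UMIs, and all 15 microglial markers were detected in each library. Levels are given as CPM, the UMIs of a gene per 1000000 summed UMIs of a class in 1 library. The clusters unnamed by the marker rule held 13583 nuclei and were left out, and names rebuilt from markers may differ from the study's own. Nuclei barcodes shared between pairs of libraries came to 0.266% to 0.548% of the smaller library.

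The start of a gene is where E-box and ETS elements are looked for, so promoter windows of 300 bases were read from RefSeq (GRCm38.p6), from 250 bases before to 50 after the start. A window was found for 41 of the 45 members. The letters CACGTG, the E-box at the centre of the element bound by TFEB, read the same on both strands. They were present for 13 of the 41 members (31.7%), against 8.09% of 27025 genes and 7.15% of all 32851 windows. Lamp1, which encodes the main glycoprotein of the lysosomal membrane, held 4 copies, at 61, 45, 28 and 15 bases before the start. Mcoln1, which encodes the calcium channel TRPML1, held 2 copies at 71 and 45 bases before the start, and Ctsd, the aspartic protease cathepsin D, held 2 at 245 and 98 bases before it. These 3 windows, 5′ to 3′ on the gene's strand with CACGTG in capitals, show how the copies are placed; they lie at chr8:13158911-13159210 (+), chr8:3500269-3500568 (+) and chr7:142387778-142388077 (-).
Lamp1: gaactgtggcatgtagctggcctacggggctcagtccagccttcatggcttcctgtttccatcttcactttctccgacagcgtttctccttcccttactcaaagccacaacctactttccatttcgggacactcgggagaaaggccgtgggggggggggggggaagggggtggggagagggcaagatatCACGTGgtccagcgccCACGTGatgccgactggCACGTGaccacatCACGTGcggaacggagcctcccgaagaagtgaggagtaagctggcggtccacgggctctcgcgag
Mcoln1: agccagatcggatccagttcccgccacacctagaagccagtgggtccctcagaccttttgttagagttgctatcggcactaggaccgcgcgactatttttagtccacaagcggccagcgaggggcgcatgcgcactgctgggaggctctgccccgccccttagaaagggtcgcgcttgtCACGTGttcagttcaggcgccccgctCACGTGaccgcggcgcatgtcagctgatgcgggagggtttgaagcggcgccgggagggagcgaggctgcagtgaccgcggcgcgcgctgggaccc
Ctsd: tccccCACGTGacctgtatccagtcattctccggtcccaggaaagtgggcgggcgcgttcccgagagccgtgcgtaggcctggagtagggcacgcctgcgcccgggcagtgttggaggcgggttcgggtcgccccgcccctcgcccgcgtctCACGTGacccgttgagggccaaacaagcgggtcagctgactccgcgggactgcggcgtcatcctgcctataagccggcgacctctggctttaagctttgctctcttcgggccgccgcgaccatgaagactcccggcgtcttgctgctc

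The letters GAGGAA, a core bound by ETS factors such as the microglial regulator PU.1, were searched on both strands and can share at most 1 base with a CACGTG. They were found for 19 of 41 members (46.3%), against 31.3% of all genes and 28.3% of all windows. Of the 19 members with a window that were highest in microglia-like nuclei in all 8 libraries, 11 held GAGGAA (57.9%) and 3 held CACGTG (15.8%). Of the other 22 members with a window, 8 held GAGGAA (36.4%) and 10 held CACGTG (45.5%). The windows of Ctss, the protease cathepsin S, and Cd68, a glycoprotein of phagocyte lysosomes, are shown because they belong to the 3 members furthest towards microglia and each held 2 copies. They lie at chr3:95526536-95526835 (+) and chr11:69666121-69666420 (-), with GAGGAA or its reverse complement TTCCTC in capitals. A match is a description of the letters only.
Ctss: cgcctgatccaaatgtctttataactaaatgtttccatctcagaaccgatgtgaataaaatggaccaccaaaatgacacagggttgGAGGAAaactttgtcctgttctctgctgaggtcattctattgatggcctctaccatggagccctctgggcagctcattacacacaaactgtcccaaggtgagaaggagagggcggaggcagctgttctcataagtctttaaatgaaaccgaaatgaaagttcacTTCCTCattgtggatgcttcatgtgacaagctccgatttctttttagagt
Cd68: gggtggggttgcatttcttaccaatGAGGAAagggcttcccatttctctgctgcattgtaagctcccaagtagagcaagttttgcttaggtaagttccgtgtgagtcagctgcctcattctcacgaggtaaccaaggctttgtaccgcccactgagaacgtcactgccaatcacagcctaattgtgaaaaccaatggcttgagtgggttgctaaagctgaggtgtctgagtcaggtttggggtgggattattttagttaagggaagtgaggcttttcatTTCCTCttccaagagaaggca

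Of the 13 classes, microglia-like nuclei had the highest summed level of the 45 genes in every library. The sum was 4219 ± 319 CPM (SD, n = 8), from 3773 to 4629 CPM. Endothelial-like nuclei followed with 1708 ± 116 CPM, then oligodendrocyte-like with 1517 ± 46.3, astrocyte-like with 1431 ± 73.8 and oligodendrocyte precursor-like (OPC-like) nuclei with 1231 ± 47.6 CPM. The neuronal classes were lower, from 689 ± 44.2 CPM (n = 4) in CA1-like to 954 ± 20.4 CPM in caudate putamen interneuron-like nuclei. The microglial mean was thus 2.47 times the endothelial and 6.13 times the CA1 mean, and its lowest library lay above the highest library of the other 12 classes. Macrophage-like nuclei, too few to be among the 13 and pooled over the libraries, stood above it at 5127 CPM (exact Poisson 95% interval 4918 to 5343, counting error only). Median UMIs per nucleus ranged over the libraries from 2017 to 2861 in microglia-like, 2490 to 4219 in endothelial-like and 17224 to 21985 in CA1-like nuclei. CPM is a share of a class's UMIs, so these ratios do not compare the number of member molecules per nucleus. Levels across classes are given as a description and were not tested.

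**Figure D1:**
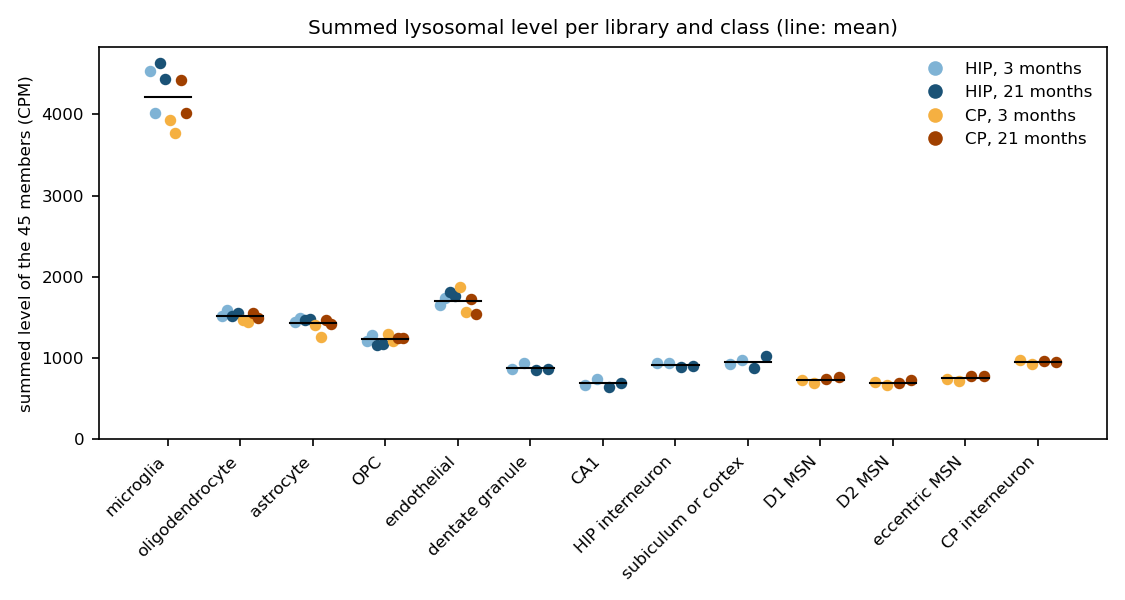
Summed level of the 45 lysosomal genes (y axis, CPM of the class's UMIs) in each library of 13 classes (x axis; HIP is hippocampus, CP caudate putamen and MSN medium spiny neuron); points are libraries coloured by region and age, lines are means. Microglia-like libraries lie between 3773 and 4629 CPM, above all others.

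The groups of members differed in how far microglia stood above the rest. Cysteine cathepsins summed to 1191 ± 118 CPM in microglia-like nuclei, 3.54 times the endothelial and 23.4 times the CA1 level. The other peptidases (Ctsa, Ctsd, Tpp1) summed to 259 ± 20.2 CPM, 2.15 times the endothelial level. Hydrolases of glycoproteins and glycolipids reached 534 ± 58.1 CPM, 2.30 times the caudate putamen interneuron-like level, their next highest class. Glycosaminoglycan hydrolases stood 1.77 times above OPC-like nuclei, lipid-handling genes 1.59 times and the 2 regulators 1.33 times above oligodendrocyte-like nuclei, and the 9 membrane proteins 1.77 times above endothelial-like nuclei.

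For 21 of the 45 members, microglia-like nuclei were the highest of the 9 classes analysed in a library, in all 8 libraries. For 30 members they had the highest mean of the 13 classes. For 19 of these 30, the microglial libraries did not overlap with those of the next class. Of the 19825 genes with a mean of at least 1 CPM in their highest class, among them all 45 members, 9.25% were highest in microglia-like nuclei in all 8 libraries, 23.9% had their highest mean there and 7.20% also did not overlap with the next class. Of the other 15 members, 4 had their highest mean in oligodendrocyte-like, 4 in astrocyte-like and 3 in endothelial-like nuclei, and 4 in neurons.

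**Figure D2:**
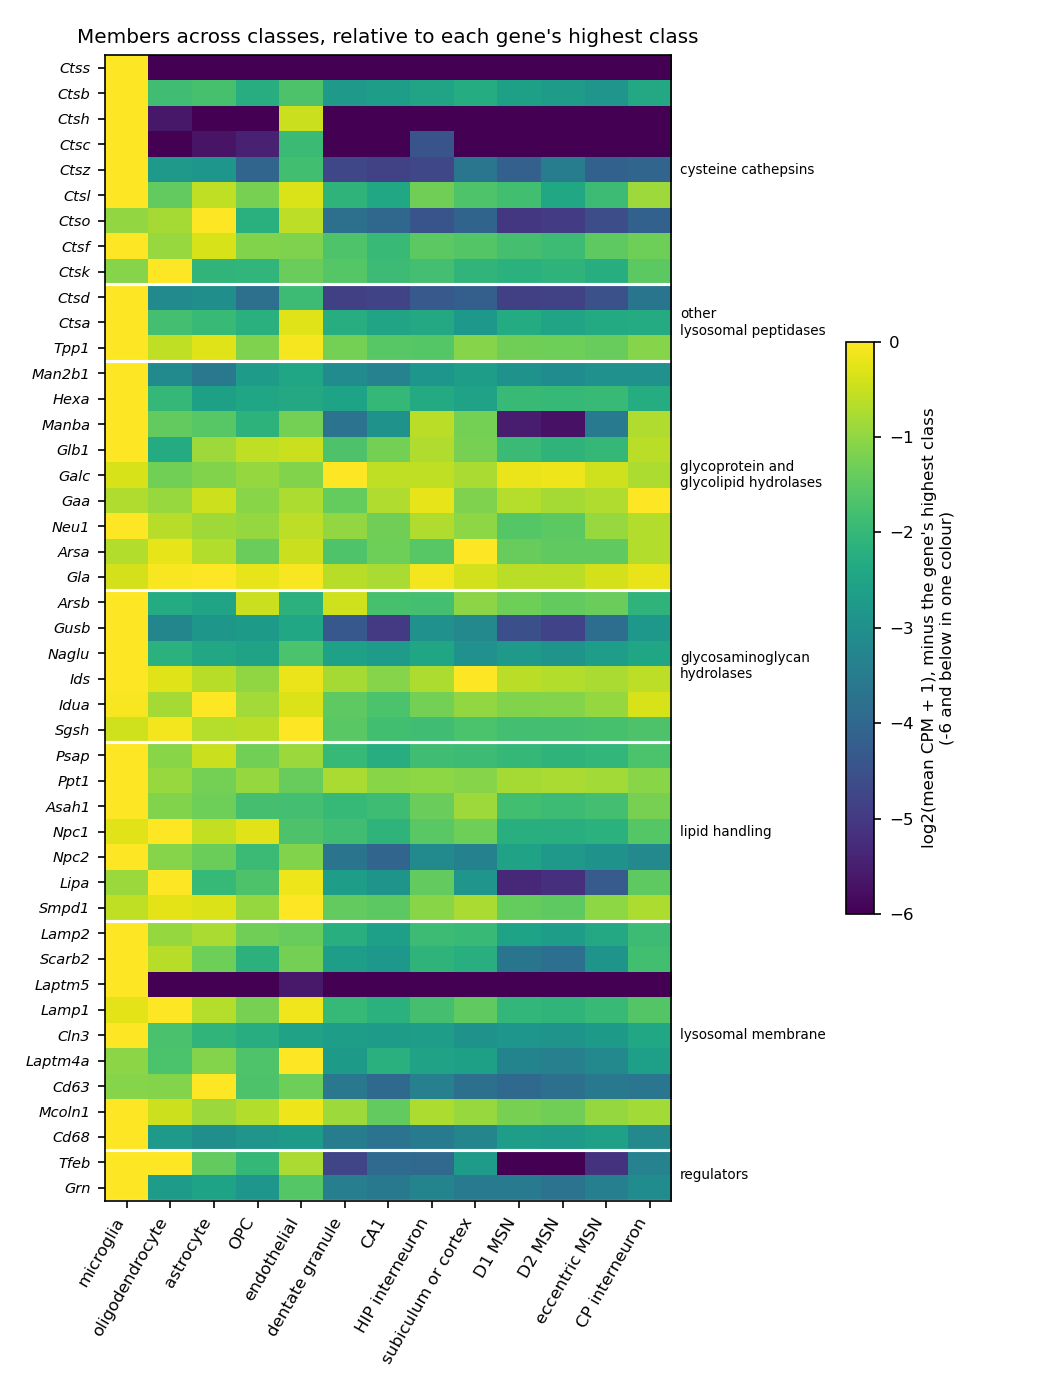
Level of each member (rows, grouped by role) in 13 classes (columns), as log2(mean CPM + 1) minus the same value in the gene's highest class; yellow is the highest class and dark purple is 6 or more log2 units lower. Ctss and Laptm5 are dark in all classes but microglia.

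Ctss had the highest ratio of microglia to the next of the 13 classes, which do not hold the macrophage-like nuclei. It ranged from 413 to 606 CPM over the 8 microglial libraries, with a median of 489 CPM, and averaged 2.64 CPM in oligodendrocyte-like nuclei, the next class, a ratio of 191. It supplied 11.8% of all member UMIs in microglia-like nuclei. Laptm5, a lysosomal membrane protein of blood and immune cells, ranged from 104 to 150 CPM (median 126 CPM) and stood 76.4 times above the endothelial mean of 1.64 CPM. Cd68 was low, from 10.6 to 17.9 CPM with a median of 14.3 CPM, yet 8.86 times the mean of eccentric medium spiny neuron-like nuclei. Only these 3 members stood more than 6 times above their next class among the 13. In the pooled macrophage-like nuclei Laptm5 was at 120 CPM (exact Poisson 95% interval 90.1 to 157) and Cd68 at 29.5 CPM (15.7 to 50.4).

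Several sugar hydrolases followed. Man2b1, which removes mannose from glycoproteins, ranged from 129 to 213 CPM (median 145 CPM), 5.67 times the endothelial mean. Gusb, the beta-glucuronidase of glycosaminoglycan breakdown, ranged from 80.6 to 130 CPM (median 88.8 CPM), 5.61 times the endothelial mean. Hexa, the alpha subunit of the hexosaminidase that degrades GM2 ganglioside, ranged from 115 to 155 CPM (median 133 CPM). Its next class was D1 medium spiny neuron-like nuclei, 3.92 times lower. Naglu, an enzyme of heparan sulfate breakdown, ranged from 8.90 to 22.7 CPM (median 16.1 CPM), 3.79 times the endothelial mean. None of these 4 overlapped with its next class.

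Among the proteases, Ctsc, cathepsin C, which activates granule proteases, ranged from 125 to 161 CPM (median 151 CPM), 3.83 times the endothelial mean. Ctsd ranged from 151 to 199.6 CPM (median 163 CPM), 3.76 times, and Ctsz, a carboxypeptidase, from 73.4 to 125 CPM (median 94.9 CPM), 3.59 times the endothelial mean. Ctsb, cathepsin B, ranged from 119 to 205 CPM (median 160.1 CPM), 3.25 times the endothelial mean. The membrane protein Cln3, mutated in juvenile Batten disease, ranged from 64.8 to 94.8 CPM (median 70.4 CPM), 3.42 times the oligodendrocyte mean. Ctsh, an aminopeptidase, averaged 161 CPM in microglia-like and 116 CPM in endothelial-like nuclei, and these libraries overlapped, while its mean in hippocampal interneuron-like nuclei was 0.140 CPM.

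**Figure D3:**
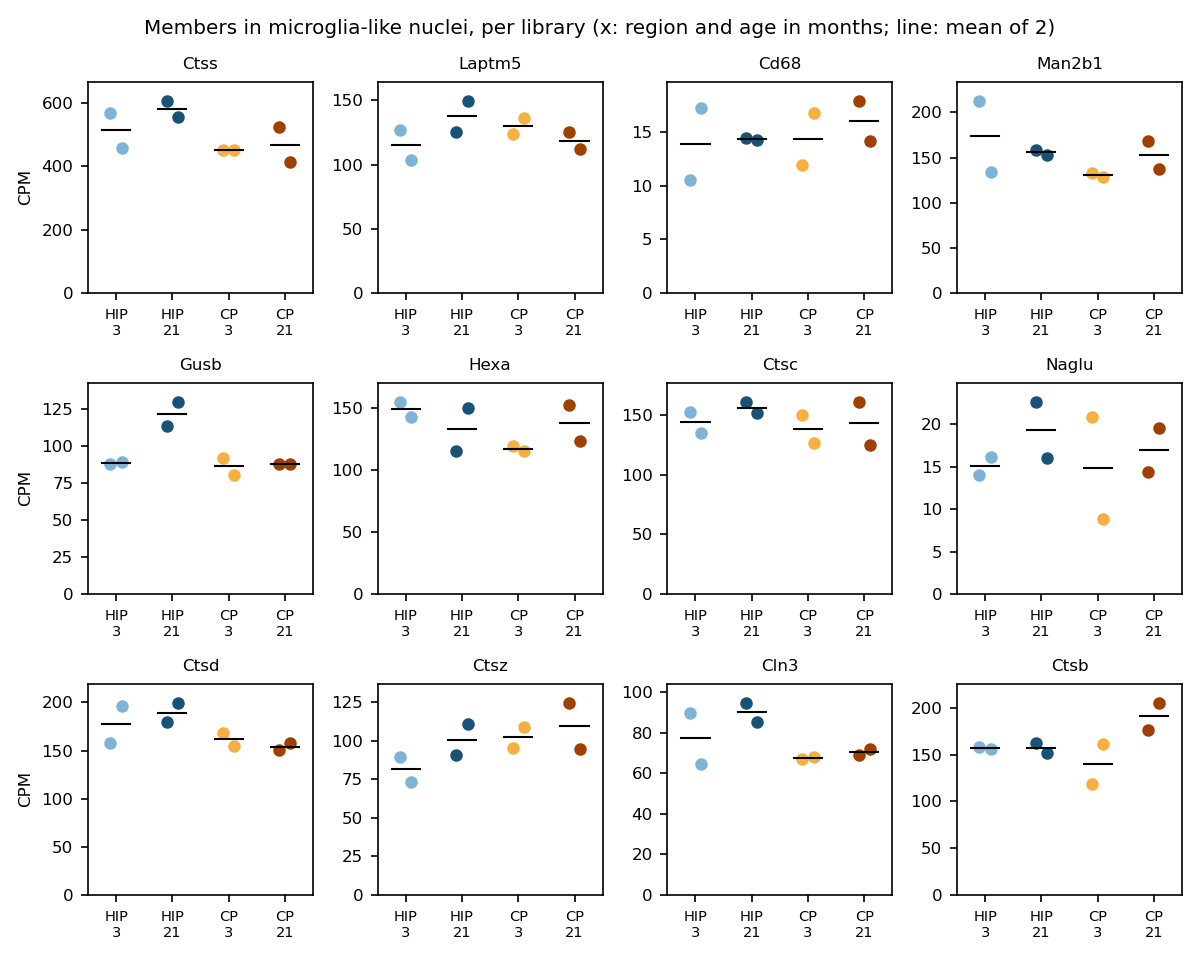
Levels (y axis, CPM) of the 12 members with the highest ratio of microglia to the next class among those highest in microglia in all 8 libraries; each panel is a gene, points are libraries by region and age in months, lines are means of 2 libraries. Ctss is the highest of the 12, between 413 and 606 CPM.

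Levels were also set per kilobase, because reads of unspliced RNA can fall in introns. Whether intron reads were counted is not given in the sources used here, so neither scaling below is shown to be the right one. Per kilobase of gene span, the order in microglia-like nuclei was Ctss (17.0 CPM per kb), Ctsd (14.1) and Psap (10.3), and per kilobase of exon Ctss (370.1 CPM per kb), Psap (93.3) and Ctsd (72.6). Psap encodes the precursor of the saposins, which help hydrolases reach their lipids. Arsb, the arylsulfatase that acts on dermatan and chondroitin sulfate, had the highest mean after Ctss among the members in microglia-like nuclei, 322 CPM, yet ranked 31 of 45 per kilobase of its span of 171387 bases, the longest of the members, and 6 of 45 per kilobase of exon (53.4 CPM per kb).

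Other classes led for a few members. Cd63, a tetraspanin of late endosomes, ranged from 41.01 to 70.4 CPM (median 57.5 CPM) in astrocyte-like and 16.5 to 38.1 CPM in microglia-like nuclei, a ratio of means of 2.16 without overlap. Laptm4a, a transmembrane protein of late endosomes, ranged from 104 to 185 CPM (median 156 CPM) in endothelial-like and 51.1 to 100.3 CPM in microglia-like nuclei, 2.06 times without overlap. Ctso was highest in astrocyte-like nuclei in all 8 libraries, with a mean of 72.7 CPM, but overlapped with endothelial-like nuclei. Ctsk, the collagen-degrading cathepsin K, averaged 7.55 ± 1.21 CPM in oligodendrocyte-like and 3.02 ± 1.45 CPM in microglia-like nuclei, 2.50 times, with 1 library in which oligodendrocyte-like nuclei were not the highest.

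The genes Lipa, Npc1 and Lamp1 also had their highest mean in oligodendrocyte-like nuclei, though each overlapped with its next class. Lipa, the lysosomal acid lipase, averaged 52.6 ± 3.79 CPM there and 27.7 ± 9.18 CPM in microglia-like nuclei, and Npc1, the cholesterol exporter, 113 ± 10.6 against 91.6 ± 24.8 CPM. Lamp1 averaged 106 ± 13.3 CPM there and was even over the microglial libraries, from 86.3 to 93.9 CPM. Lipa was lowest in D1 medium spiny neuron-like nuclei, 0.362 ± 0.167 CPM (n = 4). Galc, the galactosylceramidase that degrades a myelin lipid, had its highest mean in dentate granule-like nuclei (51.6 ± 4.497 CPM, n = 4), with D2 and D1 medium spiny neuron-like nuclei next at 46.4 ± 3.25 and 45.4 ± 3.43 CPM. Its mean in oligodendrocyte-like nuclei, 20.6 ± 2.74 CPM, was the lowest of the 13 classes. Gaa, the acid glucosidase of glycogen, had its highest mean in caudate putamen interneuron-like nuclei (38.6 ± 8.68 CPM, n = 4), which overlapped with hippocampal interneuron-like nuclei.

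Tfeb itself was shared by microglia-like nuclei (134 ± 31.6 CPM) and oligodendrocyte-like nuclei (133 ± 17.9 CPM), which overlapped. It averaged 0.991 ± 0.310 CPM in D2 and 1.13 ± 0.286 CPM in D1 medium spiny neuron-like nuclei (n = 4 each). Manba, the beta-mannosidase, spanned a similar range, from 100.1 ± 19.7 CPM in microglia-like to 0.927 ± 0.175 CPM in D2 medium spiny neuron-like nuclei, with 64.3 ± 4.45 CPM in hippocampal interneuron-like nuclei. The 5 members Arsa, Ctsk, Gla, Sgsh and Smpd1, were too low in microglia-like nuclei to be tested, with 13 to 54 UMIs over all 8 libraries.

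A small cluster of macrophage-like nuclei, 112 in all and under 20 in some libraries, was pooled over the 8 libraries and not tested. There 24 of the 45 members were above their microglial mean, and the same count was not made over all genes. Ctsc reached 769 CPM there (exact Poisson 95% interval 689 to 855, counting error only) against a microglial mean of 145 CPM, and Ctsb 522 CPM (457 to 594) against 162 CPM. Together these differences were larger than that between the summed levels of the 45 members. Ctss was lower at 218 CPM (176 to 266) than the microglial 503 CPM, as was Arsb at 68.1 CPM (45.9 to 97.2) against 322 CPM.

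The comparison of 21 with 3 months asks which genes change with age in each region. No member passed the test in microglia-like nuclei in either region, in the mean of both regions or in the difference between regions. By edgeR's quasi-likelihood test, 40 members were tested and 0 had a Benjamini-Hochberg adjusted p under 0.05. At an unadjusted p under 0.05 there were 4 in hippocampus, 5 in caudate putamen, 6 in the mean and 1 in the difference, while 10.1%, 8.05%, 13.01% and 5.20% of all genes had such a p. DESeq2 gave 0 calls among the members in each. Among all 10221 genes tested, edgeR called 0.127% in hippocampus, 0.753% in caudate putamen, 1.5% in the mean and 0.00978% in the difference, and DESeq2 called 0.0489%, 0.225%, 0.832% and 0.00978%. Of the 40 members, 24 had a log2 fold change above 0 in hippocampus (median 0.07, against -0.03 for all genes), 32 in caudate putamen (0.23 against 0.00) and 30 in the mean (0.15 against -0.02). In the mean, astrocyte-like nuclei had 28 of 40 members above 0 (all genes 48.6%) and oligodendrocyte-like nuclei 19 of 43 (46.1%). OPC-like nuclei had 15 of 31 (49.0%) and endothelial-like nuclei 16 of 26 (52.7%). Summed levels of the 45 members in microglia-like nuclei were 4530 and 4016 CPM at 3 months and 4629 and 4430 CPM at 21 months in hippocampus, where the ages overlapped. They were 3934 and 3773 against 4421 and 4016 CPM in caudate putamen, where both older libraries lay above both younger ones. The 15 microglial markers summed to 12080 and 11607 CPM at 3 months and 11433 and 9656 CPM at 21 months in these caudate putamen nuclei, where both older libraries lay below both younger ones.

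**Figure D4:**
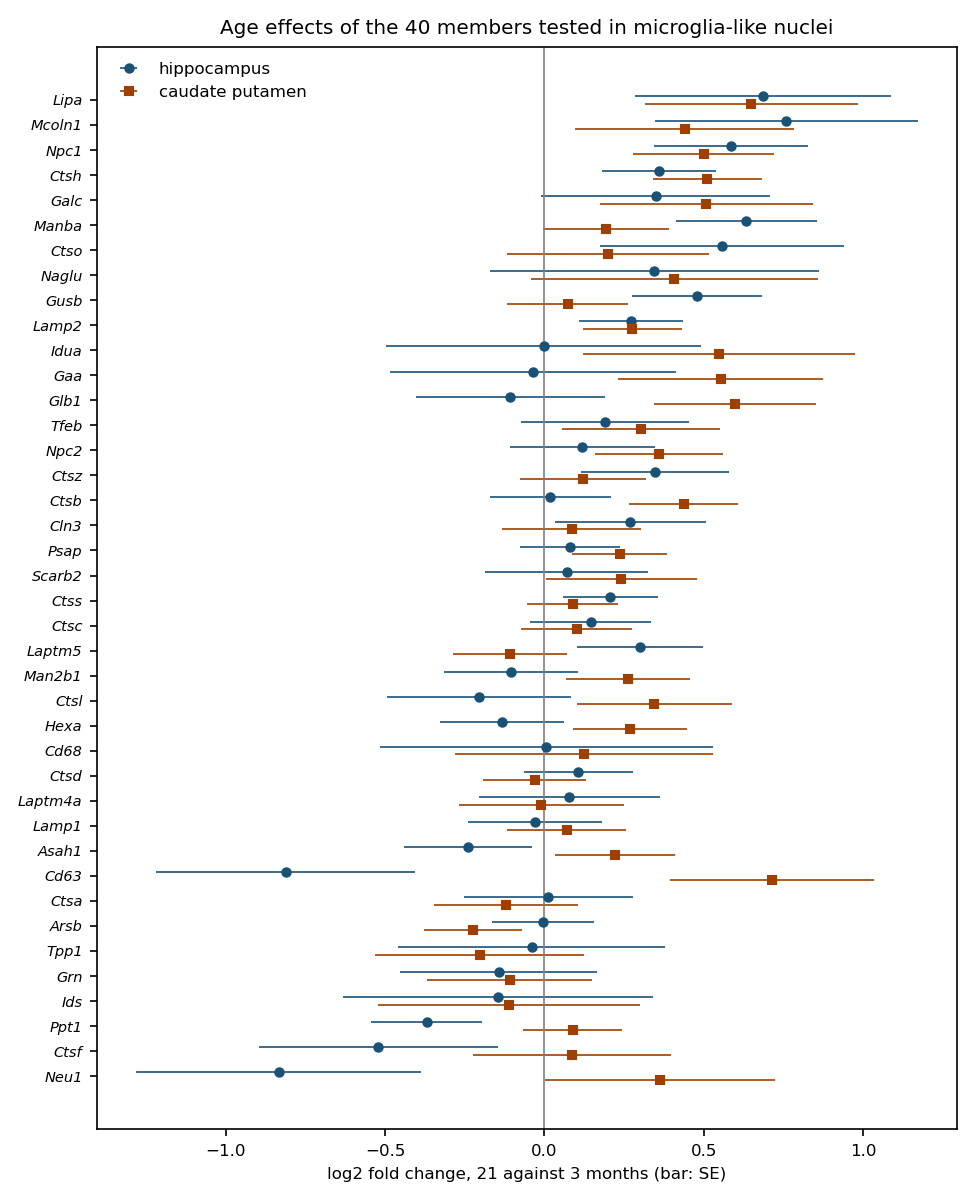
Log2 fold change at 21 against 3 months (x axis, bars are SE) of the 40 members tested in microglia-like nuclei (y axis), in hippocampus (circles) and caudate putamen (squares), ordered by the mean of both. In caudate putamen 32 of 40 lie above 0 (50.2% of all genes did) and in hippocampus 24 of 40 (47.1%). Of these members 0 passed the test.

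The 5 members with the smallest p in the mean over regions were Ctsh, Npc1, Manba, Lipa and Lamp2. Ctsh stood at 176 and 147 CPM at 3 months and 218 and 187 CPM at 21 months in hippocampus, and at 129 and 107 against 168 and 157 CPM in caudate putamen, so both older libraries lay above both younger ones in each region. Its mean log2 fold change was 0.44 ± 0.12 (SE), with an adjusted p of 0.0953. Without the first 3-month hippocampal library the edgeR adjusted p was 0.0382, and with called doublets retained it was 0.0356. Npc1 stood at 89.7 and 74.5 against 138 and 103 CPM in hippocampus and 56.6 and 78.0 against 108 and 84.8 CPM in caudate putamen. It did not overlap between ages within a region, and its mean log2 fold change was 0.54 ± 0.16 (edgeR adjusted p 0.119, and 0.0457 with no filter on low counts). Manba (0.41 ± 0.15), Lipa (0.67 ± 0.26) and Lamp2 (0.27 ± 0.11), the second large membrane glycoprotein, had edgeR adjusted p-values of 0.213, 0.263 and 0.289. In oligodendrocyte-like nuclei the mean log2 fold change was 1.04 ± 0.31 for Ctsh (edgeR adjusted p 0.0716), 0.30 ± 0.12 for Manba (0.160) and 0.23 ± 0.06 for Lamp2 (0.0556). It was -0.02 for Npc1 and 0.04 for Lipa there. In astrocyte-like nuclei, where Ctsh was not tested, it was 0.27 for Manba, 0.36 for Lamp2, 0.10 for Npc1 and -0.05 for Lipa. The microglial markers were also higher at 21 months in oligodendrocyte-like nuclei, without overlap in either region (values further on). Their part in the Ctsh value of those nuclei was not tested.

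In hippocampus alone the smallest p-values belonged to Manba, Npc1, Gusb, Ppt1 and Ctsh. Manba stood at 88.0 and 72.3 against 140.1 and 103 CPM, and Gusb at 88.0 and 89.6 against 113 and 130.1 CPM. Ppt1, which removes palmitate from proteins, was the exception in direction, at 178 and 165 against 138 and 123 CPM (log2 fold change -0.37 ± 0.17, edgeR adjusted p 0.493). In caudate putamen alone they belonged to Ctsh, Ctsb, Glb1, Npc1 and Cd63. Ctsb stood at 119 and 162 CPM at 3 months and 177 and 205 CPM at 21 months (0.44 ± 0.17, edgeR adjusted p 0.451), and Glb1, the beta-galactosidase, at 40.2 and 48.2 against 78.0 and 55.5 CPM (0.60 ± 0.25, adjusted p 0.528). Glb1 was also above 0 in caudate putamen oligodendrocyte-like (0.66 ± 0.22, edgeR adjusted p 0.206), eccentric medium spiny neuron-like (0.72 ± 0.20, 0.271) and astrocyte-like nuclei (0.20 ± 0.16, 0.665). So it was in D1 (0.33 ± 0.12, 0.274) and D2 medium spiny neuron-like (0.28 ± 0.10, 0.132) and interneuron-like nuclei (0.35 ± 0.18, 0.527). Glb1 overlaps Tmppe by 6172 bases on the same strand, and the part of Tmppe in its values was not tested. The 7 T cell markers summed to 11.9 and 1.57 CPM at 3 months and 60.9 and 85.9 CPM at 21 months in the caudate putamen microglia-like nuclei, with 3 and 2 against 5 and 6 of them detected, and Cd3e at 0 in all 8 libraries. They summed to 4.12 to 8.80 CPM in hippocampus. The 7 fibroblast markers summed to 31.7 and 43.2 against 74.2 and 76.6 CPM in hippocampus and to 25.3 and 42.9 against 64.5 and 60.9 CPM in caudate putamen, with 2 to 7 of them detected. The 8 mural cell markers summed to 11.9 and 14.7 against 30.5 and 44.6 CPM in caudate putamen, and the 9 endothelial markers to 82.7 and 63.7 against 124 and 103 CPM in hippocampus. Of all 24 marker lists, the microglial one included, 3 were higher and 8 lower at 21 months without overlap in hippocampus, and 7 and 7 in caudate putamen. Committed precursor markers were at 1145 and 1093 against 1533 and 1265 CPM in hippocampus. In caudate putamen they were at 1150 and 1028 against 1300 and 1191 CPM. Astrocyte markers were lower in hippocampus, at 649 and 804 against 641 and 520 CPM. They were higher in caudate putamen, at 549 and 514 against 607 and 765 CPM. Macrophage markers were lower in hippocampus, at 267 and 246 against 204 and 209 CPM. The part of any of these lists in the members' values was not tested. In 1 alternative, nuclei that held 2 or more UMIs of macrophage or T cell markers were left out. The caudate putamen values were then 0.53 for Ctsh, 0.51 for Ctsb, 0.76 for Glb1, 0.52 for Npc1 and 0.85 for Cd63. The hippocampal value of Ctsh fell from 0.36 to 0.23 without those nuclei. Nuclei with fewer such UMIs stayed in, and the part of macrophage and T cell RNA in the members' values was not tested. Over the alternatives the values in hippocampus ranged from 0.41 to 0.85 for Manba, 0.38 to 0.79 for Npc1, 0.38 to 0.69 for Gusb, -0.45 to -0.15 for Ppt1 and 0.21 to 0.61 for Ctsh. Those in caudate putamen ranged from 0.35 to 0.62 for Ctsh, 0.25 to 0.71 for Ctsb, 0.33 to 0.80 for Glb1, 0.31 to 0.79 for Npc1 and 0.30 to 0.98 for Cd63.

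Cd63 showed the smallest p for a difference of age effects between regions in microglia-like nuclei. It stood at 28.1 and 35.6 CPM against 16.5 and 19.6 CPM in hippocampus, and at 29.8 and 18.3 against 34.1 and 38.1 CPM in caudate putamen. The difference on the log2 scale was 1.53 ± 0.52 (edgeR adjusted p 0.943). Neu1, a sialidase, differed by 1.19 ± 0.58 (0.961), and Ppt1, Glb1 and the ceramidase Asah1 followed with 0.46, 0.71 and 0.46 (edgeR adjusted p 0.971 each). Over the alternatives the difference ranged from 1.11 to 1.94 for Cd63, 0.68 to 1.49 for Neu1, 0.26 to 0.53 for Ppt1, 0.096 to 0.94 for Glb1 and 0.24 to 0.68 for Asah1. It was lowest with doublets retained for Neu1, Ppt1 and Glb1, without the second 3-month caudate putamen library for Cd63 and without the second 21-month hippocampal one for Asah1.

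Outside microglia, 5 pairs of member and class passed the test with age. In the mean of both regions 3 of 180 pairs were called (2.94% of all pairs of gene and class were), in hippocampus 1 of 328 (1.08% of all pairs were called) and in caudate putamen 1 of 340 (1.04%). In the difference between regions edgeR called 0 of 180 pairs (0.00863% of all), where 6 had an unadjusted p under 0.05 and DESeq2 also gave 0 calls. In each of the 3 comparisons with a call the members' share was below that of all genes.

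Oligodendrocyte-like nuclei rose in Arsb and Tfeb. Arsb (chr13:93771630-93943016, GRCm38, plus strand) stood at 53.8 and 58.5 CPM at 3 months and 83.2 and 78.4 CPM at 21 months in hippocampus, and at 45.01 and 54.2 against 65.3 and 72.3 CPM in caudate putamen. The ages did not overlap in either region. The mean log2 fold change was 0.55 ± 0.08 (edgeR adjusted p 0.00434), and the call held under every alternative run, with adjusted p-values up to 0.0395. Tfeb (chr17:47737030-47792419, plus strand) stood at 124 and 108 against 153 and 149.6 CPM in hippocampus and 118 and 116 against 148 and 144 CPM in caudate putamen. It rose by 0.40 ± 0.07 (edgeR adjusted p 0.00903), and the call ended without the first 21-month hippocampal library or the second 3-month caudate putamen library, with a highest adjusted p of 0.0670. These were 2 of 43 members tested in a class where 5.68% of genes were called, 3.55% as higher. The 15 microglial markers summed to 77.6 and 103 against 124 and 106 CPM in hippocampal oligodendrocyte-like nuclei and to 87.9 and 108 against 121 and 112 CPM in caudate putamen. They were thus higher at 21 months without overlap in both regions. In microglia-like nuclei they summed to 9656 CPM or more. Of 24 marker lists, 4 were higher and 5 lower at 21 months without overlap in hippocampus, and 7 and 5 in caudate putamen. The CA3 neuron markers summed to 1033 and 1080 against 1348 and 1146 CPM in hippocampus and 762 and 696 against 972 and 956 CPM in caudate putamen. In caudate putamen the astrocyte markers summed to 383 and 313 against 478 and 543 CPM, and the oligodendrocyte markers themselves to 10968 and 11475 against 10277 and 9057 CPM. The part of these lists in the result was not tested.

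**Figure D5:**
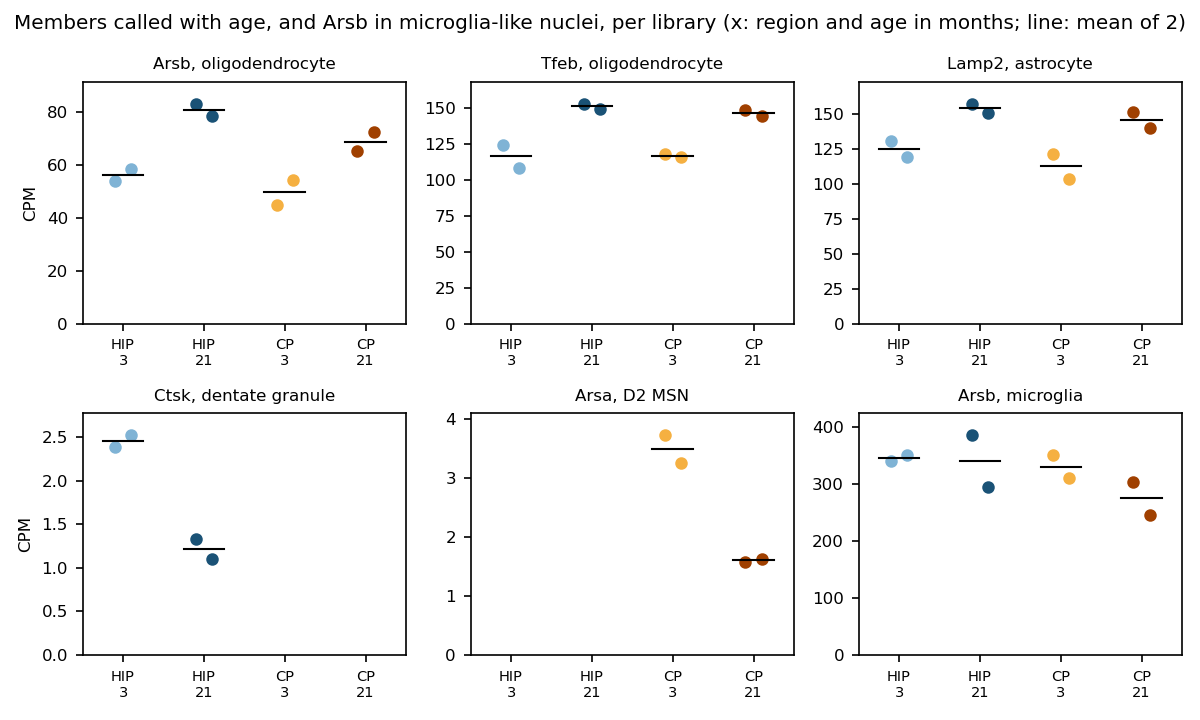
Levels (y axis, CPM) of the 5 pairs of member and class called with age, and of Arsb in microglia-like nuclei, per library by region and age in months (x axis); points are libraries and lines are means of 2. Arsb and Tfeb lie higher at 21 months in both regions in oligodendrocyte-like nuclei, Ctsk and Arsa lower in the single region measured.

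The age effect on Arsb differed between microglia and oligodendrocytes. In microglia-like nuclei Arsb stood at 339.5 and 349.8 CPM at 3 months and 385 and 294 CPM at 21 months in hippocampus, and at 349.7 and 311 against 304 and 246 CPM in caudate putamen (mean log2 fold change -0.11 ± 0.11, edgeR adjusted p 0.731). The microglial minus the oligodendrocyte effect was -0.64 ± 0.14 (edgeR adjusted p 0.00656). This was the single call among 129 pairs of member and glial class (0.641% of all pairs were called, and 0.879% of genes in this pair of classes), and it was lost with DESeq2 and without the first 3-month caudate putamen library, with adjusted p-values up to 0.110.

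Astrocyte-like nuclei rose in Lamp2 (chrX:38401357-38456454, minus strand), 1 of 40 members tested where 3.33% of genes were called, 2.09% as higher. It stood at 131 and 119.7 against 158 and 151 CPM in hippocampus and 121 and 104 against 152 and 139.8 CPM in caudate putamen, without overlap in either region. The mean log2 fold change was 0.36 ± 0.07 (edgeR adjusted p 0.0227). Leaving out a library ended the call in 5 of 8 cases (the second 3-month and either 21-month library of hippocampus, the second 3-month and the first 21-month library of caudate putamen), with values from 0.31 to 0.37 and adjusted p-values up to 0.126. In astrocyte-like nuclei 5 of 24 marker lists were higher and 5 lower at 21 months without overlap in hippocampus, and 4 and 3 in caudate putamen. The microglial markers summed to 81.8 and 77.2 against 88.6 and 105 CPM in hippocampus and 66.8 and 73.1 against 79.8 and 74.7 CPM in caudate putamen, and the mural cell markers to 192 and 170.2 against 209.9 and 207 CPM and 192 and 221 against 257 and 235 CPM. The part of these lists in the rise was not tested. Lamp2 was also above 0, without a call, in oligodendrocyte-like (0.23 in the mean, edgeR adjusted p 0.0556), D2 (0.24, 0.0845), D1 (0.21, 0.247) and eccentric medium spiny neuron-like (0.22, 0.496) and dentate granule-like nuclei (0.17, 0.229). It was below 0 in CA1-like (-0.06, 0.884) and subiculum- or cortex-like nuclei (-0.02, 0.999).

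In neurons both calls were falls of members at low level. Ctsk (chr3:95499256-95509362, plus strand) in dentate granule-like nuclei stood at 2.38 and 2.52 CPM at 3 months and 1.33 and 1.099 CPM at 21 months, from 39 to 252 UMIs. It fell by 0.96 ± 0.21 on the log2 scale (edgeR adjusted p 0.0254, 1 of 44 members, with 4.02% of genes called and 1.76% as lower), and the call ended with DESeq2 and without either 21-month library. The astrocyte markers summed to 1119 and 1101 against 936 and 897 CPM there, and the microglial ones to 86.7 and 94.7 against 61.4 and 78.7 CPM, and their part in the fall was not tested. Arsa (chr15:89472476-89477425, minus strand), the sulfatidase deficient in metachromatic leukodystrophy, stood at 3.72 and 3.25 against 1.57 and 1.63 CPM in D2 medium spiny neuron-like nuclei, from 59 to 203 UMIs. It fell by 1.14 ± 0.17 (edgeR adjusted p 0.0198, 1 of 42 members, with 4.81% called and 2.76% as lower), and removing any of the 4 caudate putamen libraries ended the call, with adjusted p-values up to 0.0858. The D2 medium spiny neuron markers overlapped between ages, at 1142 and 1202 against 1123 and 1214 CPM, and the astrocyte markers summed to 952 and 1051 against 1053 and 1260 CPM. Arsa overlaps C230037L18Rik by 1190 bases and Arsb overlaps Gm47210 by 565 bases, each on the opposite strand, and whether counting used strand is not given in the sources used here. In the other 5 caudate putamen classes where it was tested, Arsa had log2 fold changes of -1.85 in eccentric medium spiny neuron-like (edgeR adjusted p 0.2505), -1.57 in interneuron-like (0.164), -1.07 in D1 medium spiny neuron-like (0.111), -0.90 in oligodendrocyte-like (0.139) and -0.89 in astrocyte-like nuclei (0.290). None of these was called by edgeR, while DESeq2 called Arsa lower in D1 medium spiny neuron-like nuclei.

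The comparison of caudate putamen with hippocampus was made in the 5 classes found in both regions. In microglia-like nuclei edgeR called 0 of 40 members (6.45% of all genes were called), where 3 had an unadjusted p under 0.05. DESeq2 also gave 0 calls among the members and called 4.67% of all genes. The smallest p belonged to Ctsh, whose log2 difference of caudate putamen minus hippocampus was -0.38 ± 0.12 (edgeR adjusted p 0.0805). It passed without the second 3-month hippocampal library (adjusted p 0.0345) and with called doublets retained (0.00634). Gaa (0.66 ± 0.27) and Ctss (-0.24 ± 0.10) followed with edgeR adjusted p-values of 0.214 and 0.248; with doublets retained both passed (0.0183 and 0.0306), and Ctss also without the second 3-month hippocampal library (0.0443). Ctss stood at 457 to 606 CPM in hippocampus and 413 to 522 CPM in caudate putamen, and the regions overlapped.

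Over the 5 classes 5 of 180 pairs were called between regions (11.1% of all pairs were), all lower in caudate putamen. Of these, 4 were in astrocyte-like nuclei, of 40 members tested and with 21.5% of genes called, 10.2% as lower. Scarb2 (LIMP-2, the carrier of glucocerebrosidase) stood at 74.2, 64.05, 75.8 and 75.3 CPM in hippocampus and 53.3, 47.1, 64.15 and 52.1 CPM in caudate putamen. The regions overlapped only between the second 3-month hippocampal and the first 21-month caudate putamen library. It was lower by -0.44 ± 0.09 (edgeR adjusted p 0.00468), and the call held under every alternative run. Cd63 was lower by -0.38 ± 0.10 (0.0149), Ctsl, cathepsin L, by -0.39 ± 0.11 (0.0203) and Laptm4a by -0.36 ± 0.10 (0.0174, all edgeR adjusted p). Ctsl did not overlap, at 37.6 to 44.1 CPM in hippocampus and 26.8 to 34.6 CPM in caudate putamen, and Cd63 did not either, at 58.6 to 70.4 against 41.01 to 56.3 CPM. Laptm4a overlapped, at 73.0 to 89.9 against 47.4 to 73.5 CPM. These 3 calls ended without the second 3-month (-0.29, -0.32 and -0.27 for Cd63, Ctsl and Laptm4a) or the second 21-month caudate putamen library (-0.37, -0.38 and -0.31), and with doublets retained the values were -0.66, -0.61 and -0.59. Pairing libraries by their number (the replicate block, described further on) also ended all 3 calls. That of Cd63 also ended without the first 21-month hippocampal library, that of Laptm4a without the second, and that of Ctsl with DESeq2 and without the first 3-month or second 21-month hippocampal or the first 21-month caudate putamen library. In oligodendrocyte-like nuclei Cd63 alone was called, at 27.6 to 32.4 against 20.7 to 24.5 CPM (-0.39 ± 0.10, edgeR adjusted p 0.0264, 1 of 43 members with 12.9% called and 5.02% as lower). The call ended with DESeq2, with the replicate block and without any library but the first 3-month one of each region. The 6 markers of D2 medium spiny neurons summed to 6.32 to 8.77 CPM in hippocampal and 162 to 278 CPM in caudate putamen astrocyte-like nuclei. The 9 astrocyte markers summed to 15198 to 16100 and 13531 to 14912 CPM, the 7 fibroblast markers to 248 to 270 and 82.6 to 112 CPM, and the 8 macrophage markers to 8.89 to 10.04 and 2.23 to 4.06 CPM. In all, 4 of 24 marker lists were higher and 7 lower in caudate putamen astrocyte-like nuclei without overlap. In oligodendrocyte-like nuclei 6 were higher and 6 lower, among them the fibroblast list, at 5.71 to 12.5 against 2.82 to 4.92 CPM. The part of any list in these differences was not tested.

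Beside the members, 103 other lysosomal genes were followed. Of 86 tested in microglia-like nuclei, 0 passed edgeR's test in hippocampus or in caudate putamen, with 9 at an unadjusted p under 0.05 in each, and 2 rose in the mean. Of all genes tested there, 0.127%, 0.753% and 1.5% were called, and 10.1%, 8.05% and 13.01% had an unadjusted p under 0.05. Mitf, the sister factor of Tfeb, stood at 635 and 588 against 837 and 754 CPM in hippocampus and 560 and 547 against 748 and 798 CPM in caudate putamen. It rose by 0.46 ± 0.09 (edgeR adjusted p 0.00773), and the call ended with the gene-length trend removed (0.36), without the first 21-month hippocampal and without the second 3-month caudate putamen library. Gnptab, which makes the mannose 6-phosphate tag and was singled out after its values were seen, stood at 38.7 and 39.9 against 74.2 and 60.6 CPM in hippocampus and 20.8 and 32.5 against 51.1 and 58.7 CPM in caudate putamen. It rose by 0.88 ± 0.20 (edgeR adjusted p 0.0284), and the call ended with DESeq2, with doublets retained (0.44) and without any of 5 libraries (values from 0.78 to 0.95): the second 3-month and both 21-month ones of hippocampus, and the first 3-month and second 21-month ones of caudate putamen. Of the 18 V-ATPase subunits tested, which acidify the lysosome, 0 were called with age, with 3 at an unadjusted p under 0.05 in hippocampus, 0 in caudate putamen and 2 in the mean.

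Between regions 3 of these 86 genes passed in microglia-like nuclei, where 6.45% of all genes were called, and all 3 were higher in caudate putamen: Lamp5, Abcb9 and, named because the count is small, the V-ATPase subunit Atp6v1e1 (0.54 ± 0.16, edgeR adjusted p 0.0424). Lamp5, a neuronal relative of Lamp1, was at 0 to 5.40 CPM (0 to 5 UMIs a library) in hippocampus and 8.70 to 14.9 CPM (8 to 26 UMIs) in caudate putamen (edgeR adjusted p 0.00533), and Abcb9, a lysosomal peptide transporter, at 2.06 to 6.48 against 10.8 to 20.7 CPM (0.0171). The Abcb9 call in microglia-like nuclei ended with DESeq2, with the replicate block and without either 21-month hippocampal library, the second 3-month or the second 21-month caudate putamen library. Both genes were also called higher in caudate putamen in oligodendrocyte-like nuclei, Lamp5 at 2.08 to 5.64 against 8.38 to 13.6 CPM (1.66 ± 0.21, edgeR adjusted p 0.000309) and Abcb9 at 3.64 to 5.86 against 11.5 to 17.0 CPM (1.38 ± 0.20, 0.000817). In astrocyte-like nuclei Lamp5 stood at 0.685 to 4.04 against 5.04 to 9.14 CPM (2.08 ± 0.39, edgeR adjusted p 0.00216) and Abcb9 at 24.1 to 27.0 against 30.2 to 35.9 CPM (0.37 ± 0.11, 0.0240). The Abcb9 call in astrocyte-like nuclei ended with DESeq2, with the replicate block, without the second 3-month or first 21-month hippocampal library and without the second 3-month or either 21-month caudate putamen library. Markers of D2 medium spiny neurons summed to 6.18 to 11.9 CPM in the hippocampal and 291 to 499.6 CPM in the caudate putamen microglia-like nuclei. D2 medium spiny neuron-like nuclei held Lamp5 at 14.0 to 26.5 CPM and Abcb9 at 46.9 to 55.9 CPM. In hippocampus dentate granule-like nuclei held them at 2.93 to 6.46 and 6.63 to 7.79 CPM, and interneuron-like nuclei at 28.8 to 41.3 and 18.0 to 24.1 CPM. The part of neuronal RNA in these differences was not tested.

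Of 743 pairs of these other lysosomal genes and classes in hippocampus, edgeR called 5 with age (1.08% of all pairs were called). Among them, the cathepsin inhibitor cystatin C, encoded by Cst3, was called lower in 3 hippocampal classes. In dentate granule-like nuclei it stood at 97.4 and 99.4 CPM at 3 months and 63.9 and 55.0 CPM at 21 months, without overlap. It fell by 0.68 ± 0.07 on the log2 scale in dentate granule-like (edgeR adjusted p 0.000443), 0.82 ± 0.16 in OPC-like (0.00312) and 0.68 ± 0.12 in CA1-like nuclei (0.0169). The first held under every alternative run, while the OPC-like call ended with the gene-length trend removed, with doublets retained, and without the second 3-month or the first 21-month hippocampal library. The CA1-like call ended with the gene-length trend removed and without the second 3-month or either 21-month library. The astrocyte and microglial markers given above for dentate granule-like nuclei were also lower at 21 months. In hippocampal OPC-like nuclei marker lists went both ways. There the committed precursor markers went from 2014 and 2004 to 1397 and 1535 CPM, and the D1 medium spiny neuron markers from 496 and 491 to 742 and 708 CPM. The part of any list in these falls was not tested. In microglia-like nuclei, where edgeR did not call Cst3 with age, it stood at 772 and 780 CPM at 3 months and 612 and 611 CPM at 21 months in hippocampus, and at 679 and 611 against 594 and 422 CPM in caudate putamen. Other hippocampal classes without a call were also lower at 21 months without overlap. Cst3 stood at 339 and 341 against 223 and 206 CPM in oligodendrocyte-like, 69.1 and 72.1 against 42.0 and 33.9 CPM in interneuron-like and 88.9 and 86.5 against 55.4 and 50.7 CPM in subiculum- or cortex-like nuclei. In hippocampal astrocyte-like and endothelial-like nuclei the ages overlapped. Caudate putamen D1 medium spiny neuron-like nuclei went the other way, at 51.4 and 31.0 against 59.7 and 53.5 CPM. So did D2 medium spiny neuron-like (54.0 and 33.5 against 60.3 and 61.2 CPM) and OPC-like nuclei (130.04 and 95.7 against 145 and 130.2 CPM). The ages overlapped in the astrocyte-like, oligodendrocyte-like, endothelial-like, interneuron-like and eccentric medium spiny neuron-like nuclei of caudate putamen.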

How the data were processed

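Single-nucleus libraries were analysed from whole-number UMI counts per gene and nucleus, as the authors deposited them. Per the submitters' processing notes they used Cell Ranger 4.0.0 and mm10, while the file headers name 6.1.2 for 7 libraries and 7.0.0 for 1. Whether intron reads or strand were counted is not given in the sources used here. Nuclei with under 500 genes or over 5% mitochondrial UMIs were dropped, and 10601 doublets called by Scrublet were removed (2.62% to 15.5% a library; in the second 3-month hippocampal library the expected share was taken). Nuclei were clustered per region with scanpy 1.11.5 (3000 variable genes without members or other lysosomal genes, 40 components, 20 neighbours, Leiden resolution 1) and named from marker lists. UMIs were summed per class and library and tested with edgeR 4.0.16 (quasi-likelihood, TMM, Benjamini-Hochberg over all genes of a class, threshold 0.05), tested on simulated data first. DESeq2 1.42.0, another normalization, filters, doublets, resolution, a gene-length correction and each library left out were alternatives.

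The members and lists were chosen with earlier results of these data known, and the limits for naming clusters were set after tables of classes by library were seen and before any member value. Named were all members called, the 12 members with the highest ratio of microglia to the next class among those highest there in all 8 libraries, up to 3 for each other class, the 5 with the smallest p in microglia where none was called, and up to 4 called genes of each pathway list. Gene positions come from GENCODE vM21, which matched 99.8% of the 32285 genes. Intervals cover counting error only.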

Additional observations from a re-analysis of the deposited data

Results flagged for a closer look

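The age effect on Arsb was lower in microglia-like than in oligodendrocyte-like nuclei by a test of the difference (log2 -0.64, edgeR adjusted p 0.00656). The call ended with DESeq2 and without the first 3-month caudate putamen library (adjusted p up to 0.110). For Fnip2, a regulator of mTORC1 at the lysosome, the microglial age effect exceeded the oligodendrocyte one by 0.58 (edgeR adjusted p 0.0136), and the call ended with DESeq2, with doublets retained and without any of 4 libraries, the first 21-month hippocampal, both 3-month caudate putamen and the first 21-month caudate putamen one (adjusted p up to 0.215). For Gnptab it exceeded the astrocyte one by 0.95 (edgeR adjusted p 0.0112), and the call ended with DESeq2, with doublets retained (0.44) and without any library but the second 3-month hippocampal one. For the other lysosomal genes, 2 of 272 pairs of gene and glial class were called in this comparison, where 0.641% of all pairs were. The age effect on Cst3 in OPC-like nuclei differed between regions by 1.17 (caudate putamen minus hippocampus, edgeR adjusted p 0.0233). Cst3 stood there at 198 and 231 CPM at 3 months and 99.6 and 131 CPM at 21 months in hippocampus, and at 130.04 and 95.7 against 145 and 130.2 CPM in caudate putamen. That call ended with DESeq2, with doublets retained and without any of 5 libraries, all but the first 3-month one of each region and the second 21-month hippocampal one (adjusted p up to 0.575). It was 1 of 400 pairs of these genes and classes, where 0.00863% of all pairs were called in the difference.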

How the results depend on the processing

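The count of members called moved with the processing, while no named result changed sign. In hippocampus (1 called with age) it was 6 with no filter on low counts, and 0 to 11 with 1 library left out, 11 without the first 3-month hippocampal one. In caudate putamen (1) it was 2 with DESeq2, 11 with no filter, 2 at Leiden resolution 2 and 0 to 4 with 1 library left out. The mean over regions (3) gave 8 with no filter and 1 to 8 with 1 library left out, and the difference (0) gave 1 with no filter and 0 to 0. Between regions (5) it was 3 with DESeq2, 8 with no filter, 16 with doublets retained and 1 to 8 with 1 library left out. Microglia against other glia (1) gave 0 with DESeq2 and 0 to 2 with 1 library left out. The summed microglial level of 4219 CPM was 3185 CPM with doublets retained and 4160 to 4282 CPM with 1 library left out. The number of members highest in microglia in all libraries (21) was 17 with doublets retained and 21 to 22 with 1 library left out. The shares of all genes called under the alternatives are not given here. The counts thus do not show if members moved more than other genes. The cause was not tested for any of these shifts. At resolution 2 hippocampal OPC-like nuclei were not named, so that class gave no value there.

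The replicate block, which pairs libraries by their number, gave 2 members called with age in hippocampus, 11 in caudate putamen and 1 between regions. The share of all genes called under the block is not given here, so these counts are not a result about the members. The members' calls that the block ended between regions were those of Cd63 (-0.35, edgeR adjusted p 0.0832), Ctsl (-0.33, 0.182) and Laptm4a (-0.19, 0.332) in astrocyte-like and Cd63 in oligodendrocyte-like nuclei (-0.26, 0.406). It also ended those of Abcb9 in microglia-like (1.72, 0.287) and astrocyte-like nuclei (0.28, 0.282). Correlations between the deviations of same-numbered libraries ran from -0.02 to 0.23 over the hippocampal classes. In caudate putamen they ran from 0.01 to 0.41, all above 0. Only 2 pairs exist per region, so the numbers are not shown to pair libraries. With 2 libraries a group, low members such as Ctsk and Arsa rest on few UMIs.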

Other observations

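Gnptg, the subunit that completes the enzyme making the mannose 6-phosphate tag, was chosen after its values were seen. In D2 medium spiny neuron-like nuclei it stood at 72.3 and 67.0 CPM at 3 months and 43.0 and 37.0 CPM at 21 months. In caudate putamen astrocyte-like nuclei it stood at 43.3 and 48.5 against 21.3 and 22.6 CPM, again without overlap. It fell with age in caudate putamen by 0.82 ± 0.09 on the log2 scale in D2 medium spiny neuron-like (edgeR adjusted p 0.00840), 1.05 ± 0.15 in astrocyte-like (0.0132), 1.02 ± 0.16 in interneuron-like (0.0183) and 0.87 ± 0.17 in oligodendrocyte-like nuclei (0.0389). In the mean of both regions it fell by 0.75 ± 0.11 in astrocyte-like and 0.68 ± 0.13 in oligodendrocyte-like nuclei (edgeR adjusted p 0.00349 and 0.0148). Hippocampal values are not given here. For the other lysosomal genes, 5 of 762 pairs were called in caudate putamen (1.04% of all) and 8 of 400 in the mean (2.94%). Of all genes in caudate putamen, 833 of 17332 were called in D2 medium spiny neuron-like and 83 of 15050 in astrocyte-like nuclei. It was 13 of 13031 in interneuron-like and 201 of 14640 in oligodendrocyte-like nuclei. In the mean it was 3.33% in astrocyte-like and 5.68% in oligodendrocyte-like nuclei. The calls in D2 medium spiny neuron-like nuclei and in the mean of astrocyte-like nuclei held under every alternative run. The caudate putamen calls ended without any one of the 4 caudate putamen libraries in oligodendrocyte-like nuclei (adjusted p up to 0.338), without the second 3-month or either 21-month one in astrocyte-like nuclei (up to 0.0938) and without the first 3-month one in interneuron-like nuclei (0.0646). The mean in oligodendrocyte-like nuclei lost its call without the first 21-month hippocampal or either 3-month caudate putamen library (up to 0.0808).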
